A study of Mus musculus with 14 samples.

Results

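The difference between genotypes in the transcriptional response of skeletal muscle to a western diet was measured as an interaction: the change by diet in mice with endothelial Myc overexpression minus the change by diet in their controls. All libraries of the 4 groups enter this contrast, so its members are 14 of the 14 libraries of the series. The CT groups were male FVB/N littermates that carry the tetO-Myc transgene without the tTA driver, and the EC-Myc OE groups were males that carry both, with human MYC expressed from the tetO promoter under a Cdh5-driven tTA, which limits the transgene to endothelial cells. Doxycycline was withdrawn from all mice at 4 to 6 weeks of age, and mice were fed the control diet (CTD) or the western diet (WD) for 20 weeks per the labels. By the labels the groups held 3 libraries (CT-CTD), 3 (CT-WD), 4 (OE-CTD) and 4 (OE-WD). Poly-A RNA of skeletal muscle was sequenced, and each library held 21833839 to 28519159 reads counted in genes. The muscle taken for each library was not given in the labels, and the sources used here differ on the weeks of diet and on the group sizes.

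Myc is a transcription factor that raises growth, ribosome production and metabolism in the cells that express it. Endothelial cells line the capillaries between muscle fibres and pass fatty acids, glucose and signals to them, so most RNA in such a sample is from fibres that do not carry active transgene. A western diet loads muscle with lipid, and the question of the contrast was whether muscle next to Myc-overexpressing endothelium answered that load differently.

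Levels are given as CPM, the counts of a gene relative to its TMM-normalized library total. Differences are log2 values ± the standard error (SE) of the model, and a positive interaction means that the change by diet in EC-Myc OE lay above that in CT. The contrast gives CT-WD and OE-CTD the same weight, so its value would be the same if the names of these groups were exchanged. The change by diet within each genotype does depend on the names. Both the group sizes given outside the labels and several comparisons that the study describes fit these libraries under such an exchange and not as labelled, so every change by diet within a genotype given below is in serious doubt. Groups are named as labelled throughout. Under an exchange the change called that of CT would be the difference between genotypes on the control diet, and the change called that of EC-Myc OE the difference between genotypes on the western diet, with EC-Myc OE minus CT in each. Mouse Myc counts do not check the labels, since the transgene is human. Square brackets after the median of a list give its range over the 14 fits that leave out 1 library, then how many of its genes lay above and below at the unadjusted level in those fits. Every count of called genes in a list is to be read beside the shares over all genes tested at that level, 1.04% above and 1.66% below.

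The 10 skeletal muscle markers, among them Acta1, Ckm and Myh4, were detected in every library, with a summed level of 125400 to 181500 CPM. The slow myosin gene Myh7 made up 1.32% to 2.68% of the counts of the 4 adult myosin heavy chain genes in each library. Several libraries stood apart from their groups. On the first principal component (28% of the variance), CT-CTD 1 lay at -0.1538 and CT-WD 1 at 20.3, while the other CT libraries lay between -47.01 and -33.05. CT-WD 1 also had the highest tendon marker level of the CT-WD group, 545 CPM against 88.2 and 112. OE-CTD 4 and OE-WD 4 held the largest mitochondrial shares, 14.9% and 14.5% of counts, and lay apart on the second component. CT-WD 3 had the highest levels of heat shock genes, given below with the values without it. Libraries of a group differed by 8.02 to 53.1 times the variance expected from counting alone, with the closest pairs among OE-CTD 1 to 3 and OE-WD 1 to 3. This ratio does not show whether libraries are from separate animals. By the numbers in the library names, OE-CTD 1 to 3 share 1 number, OE-CTD 4 has another and the 4 OE-WD libraries share yet another, while each CT library has its own. The numbers of CT-CTD 1 and CT-WD 1 are adjacent and far from those of the other 4 CT libraries, which follow each other. What these numbers mark was not given, so it is not known here how many separate mice, litters or batches stand behind a group. In CT each diet group holds 1 of the adjacent numbers, so a block by these numbers, given below, is separate from diet as labelled. In EC-Myc OE the diets have different numbers, so what the numbers mark cannot be told apart from diet there.

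No gene passed the adjusted level. The edgeR quasi-likelihood test with Benjamini-Hochberg adjustment over 15458 genes called 0 genes (0.0%) at 1.5-fold and adjusted p under 0.05, and the smallest adjusted p was 0.675. Without adjustment, 915 genes (5.92%) had p under 0.05. Of these, 417 (2.7%) also passed 1.5-fold and are called here genes at the unadjusted level: 161 (1.04%) with the change in EC-Myc OE above that in CT and 256 (1.66%) with it below. At the adjusted level DESeq2 called 3 genes (Mylk4, Acsl3 and Gm11716), limma voom 0 and edgeR with RLE size factors 0. The edgeR test without a filter on low counts called 29 (8 above, 21 below), among them Sik1, St3gal1, Acsl3, Myog, Mylk4, Gdf11, Slc25a30, Arntl, Trim63, Irs2, the heat shock genes Hspa1a, Hspa1b and Dnajb1, and 6 immediate early genes given below. DESeq2 called 434 genes and limma voom 647 at the unadjusted level. A block that sets the CT libraries numbered 1 apart, as the library names do, gave 0 at the adjusted and 470 at the unadjusted level. A fit with the replicate number as a block within genotype called 1 gene at the adjusted level, Mylk4, and leaving out CT-WD 1 or CT-WD 2 also gave 1 each, Cnksr3 and Acsl3. The share near 5% that p under 0.05 gives is close to what a test with no differences would give, so single genes are described by their values.

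The median SE was 0.24 on the log2 scale for the interaction, 0.18 for the change by diet in CT and 0.16 in EC-Myc OE. The model takes each library as a separate animal. If libraries of a group share an animal, which is not known, the SE and p values given here are too small. CT-WD 1 decided part of the count, which was 777 (458 above, 319 below) without it. Without both CT libraries numbered 1 it was 744 (380 above, 364 below). Of the 417 genes, 303 were called again without CT-WD 1 and 220 without CT-WD 3, the fewest for any library left out.

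With the groups as labelled, 200 of the 417 genes had a fitted change past 1.5-fold in CT alone, 41 in EC-Myc OE alone and 113 in neither. Over all genes tested these numbers were 1160, 511 and 13463, so as labelled a change past 1.5-fold was more frequent in CT with no choice of genes. The change in CT rests on fewer libraries and had the larger median SE, 0.18 against 0.16. A wider spread puts more genes past a fold limit, and its part in these numbers was not tested. With the names exchanged these numbers would count differences between genotypes on each diet, and changes by diet were not counted for that case. In 62 genes both changes passed 1.5-fold in opposite directions, 22 with EC-Myc OE above CT and 40 below, and in 1 gene both passed in the same direction. Among all genes tested the balance was the reverse, with 112 in opposite directions and 212 in the same, and choosing genes by a difference between the changes favours opposite ones. The signs of the 2 changes differed in 368 of the 417 (88.2%), against 51.4% of all genes tested, which that choice also favours. For the 256 genes with EC-Myc OE below CT, the median change by diet was 0.77 in CT and -0.26 in EC-Myc OE. For the 161 genes above, the medians were -0.57 and 0.33. Among the 13472 protein-coding genes tested, 132 lay above and 203 below.

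**Figure D1:**
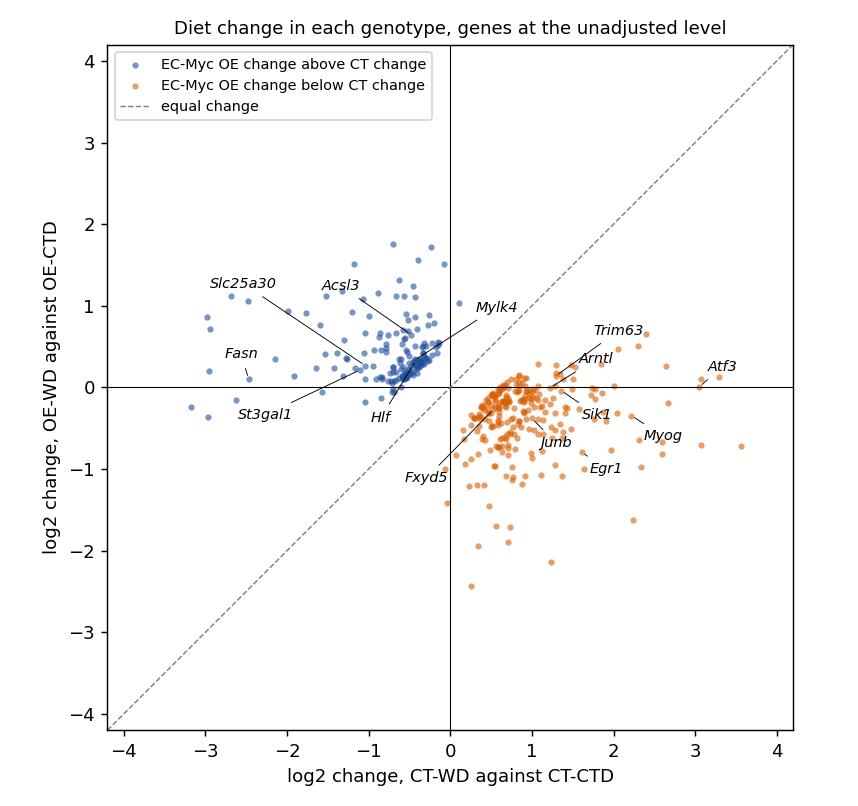
Each point is a gene at the unadjusted level of the interaction (417 genes), with its log2 change by western diet in CT on the horizontal axis and in EC-Myc OE on the vertical axis; the dashed line marks equal change. The 161 genes above the line (blue) lie mostly in the upper left and the 256 below it (orange) mostly in the lower right, where the changes have opposite signs, and the labelled genes are a selection of those described in the text.

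Described next are protein-coding genes of at least 1 CPM with the smallest p among those with EC-Myc OE above CT. Mylk4, a kinase of the myosin light chain kinase family (chr13:32700834-32783954, mm10), was measured at 2466, 2858 and 2524 CPM (CT-CTD), 1975, 2161 and 1630 (CT-WD), 1659, 1522, 1629 and 1854 (OE-CTD) and 2088, 2015, 2113 and 2158 (OE-WD). Every western diet library of CT lay below every control diet library of CT, and the order was the reverse in EC-Myc OE, whose western diet libraries lay close together. The interaction of Mylk4 was 0.77 ± 0.15 from changes of -0.44 in CT and 0.33 in EC-Myc OE (adjusted p = 0.675, edgeR quasi-likelihood test, Benjamini-Hochberg). Over the alternatives its adjusted p ranged from 0.00211 with DESeq2 to 0.999, and the fit with the replicate block gave 0.0151. Acsl3, which activates long-chain fatty acids to acyl-CoA and acts at lipid droplets (chr1:78657825-78707743), was measured at 39.2, 29.1 and 42.4 CPM (CT-CTD), 23.6, 35.7 and 20.3 (CT-WD), 19.4, 19.6, 16.6 and 20.5 (OE-CTD) and 31.5, 30.3, 27.8 and 29.4 (OE-WD). In EC-Myc OE all western diet libraries lay above all control diet libraries, and in CT the groups overlapped through CT-WD 2, the highest of its group. The interaction was 1.12 ± 0.23, with -0.48 in CT and 0.65 in EC-Myc OE, the latter a difference between genotypes on the western diet if the names are exchanged.

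Pla2g7, a secreted phospholipase that degrades platelet-activating factor, was measured at 33.9, 34.8 and 33.4 CPM (CT-CTD), 21.9, 26 and 28.4 (CT-WD), 18.6, 19.8, 18.9 and 23.3 (OE-CTD) and 26.9, 23.5, 25.2 and 21.8 (OE-WD). CT-CTD libraries were the highest of all and did not overlap CT-WD, while the EC-Myc OE groups overlapped. The interaction was 0.7 ± 0.15. Gdf11, a ligand of the TGF-β family related to myostatin, was measured at 13, 15.2 and 12.5 CPM (CT-CTD), 8.71, 8.41 and 10.9 (CT-WD), 9.55, 10.3, 8.82 and 11.7 (OE-CTD) and 11.4, 12.1, 14.2 and 17 (OE-WD). The CT groups did not overlap, with western diet lower, and in EC-Myc OE OE-WD 1 lay below OE-CTD 4. Its interaction was 0.97 ± 0.21. St3gal1, a sialyltransferase, was measured at 38.8, 75.5 and 71.7 CPM (CT-CTD), 38.3, 19.9 and 28.5 (CT-WD), 25.3, 27.7, 25.9 and 21 (OE-CTD) and 33.8, 28.1, 27.1 and 27.3 (OE-WD). CT-CTD 2 and 3 stood far above every other library and CT-CTD 1 lay near CT-WD 1, so the interaction of 1.32 ± 0.3 rested mainly on CT-CTD 2 and 3. Without both CT libraries numbered 1 it was 1.82, and St3gal1 was then the 1 gene at the adjusted level (adjusted p = 0.00605, edgeR quasi-likelihood test, Benjamini-Hochberg).

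The remaining genes of this direction among the 10 with the smallest p are given by their differences, and Hlf is described with the clock genes. Slc25a30, a mitochondrial carrier, had an interaction of 1.3 ± 0.32, with -1.04 in CT and 0.27 in EC-Myc OE, where its mean was lower than in CT on both diets. Rhbdl3, of the rhomboid family, differed by 0.73 ± 0.17, Sec22c, a vesicle trafficking protein, by 0.65 ± 0.16, and Rsad1, a radical SAM domain protein, by 0.59 ± 0.15. Each had a lower western diet mean in CT and a higher one in EC-Myc OE.

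Of the protein-coding genes of at least 1 CPM with EC-Myc OE below CT, the 10 with the smallest p include those that follow. Egfr, the epidermal growth factor receptor (chr11:16752203-16918158), was measured at 7.28, 5.06 and 6.35 CPM (CT-CTD), 14.2, 9.66 and 12 (CT-WD), 10.3, 9.9, 9.65 and 10.9 (OE-CTD) and 8.48, 11.2, 9.06 and 10.7 (OE-WD). The 3 CT-CTD libraries were the lowest of all 14, and the other 3 groups overlapped. The interaction was -0.99 ± 0.22, from 0.94 in CT and -0.046 in EC-Myc OE (adjusted p = 0.675, edgeR quasi-likelihood test, Benjamini-Hochberg). Icam1, which binds leukocytes to endothelium, had the same arrangement at 3.36, 2.8 and 2.98 CPM (CT-CTD), 5.75, 4.59 and 6.13 (CT-WD), 4.37, 4.82, 6.43 and 5.15 (OE-CTD) and 4.55, 5.01, 4.85 and 4.14 (OE-WD). CT-CTD libraries again were the lowest, and the interaction was -1.01 ± 0.23. B4galt6, an enzyme of glycosphingolipid synthesis, was measured at 2.49, 1.67 and 3.22 CPM (CT-CTD), 4.84, 5.17 and 5.02 (CT-WD), 5.75, 5.58, 5.48 and 5.26 (OE-CTD) and 4.4, 5.75, 3.49 and 5.1 (OE-WD). Its CT-CTD libraries lay below all others, with an interaction of -1.26 ± 0.28.

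Sik1, a salt-inducible kinase that responds to cAMP and to contraction, was measured at 22, 23.5 and 26.2 CPM (CT-CTD), 47.4, 46.3 and 90 (CT-WD), 32.7, 39.4, 62.5 and 45 (OE-CTD) and 48.8, 36.3, 49 and 40.7 (OE-WD). CT-CTD was low and narrow in range, CT-WD 3 was the highest of all libraries, and the EC-Myc OE groups overlapped. The interaction was -1.4 ± 0.32. Fxyd5, a regulator of the sodium pump, differed by -0.8 ± 0.2, Pqlc1, a membrane protein with PQ loops, by -0.81 ± 0.21, and Pim3, a serine/threonine kinase, by -0.77 ± 0.21. Myog, the myogenic factor that denervation induces in adult muscle, was measured at 5.85, 6.9 and 9.41 CPM (CT-CTD), 7.95, 18.9 and 76.6 (CT-WD), 8.43, 9.27, 11.8 and 9.54 (OE-CTD) and 9.45, 5.86, 8.63 and 6.75 (OE-WD). CT-WD 3 alone was far above the rest, and the interaction of -2.57 ± 0.71 was -1.2 without it.

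**Figure D2:**
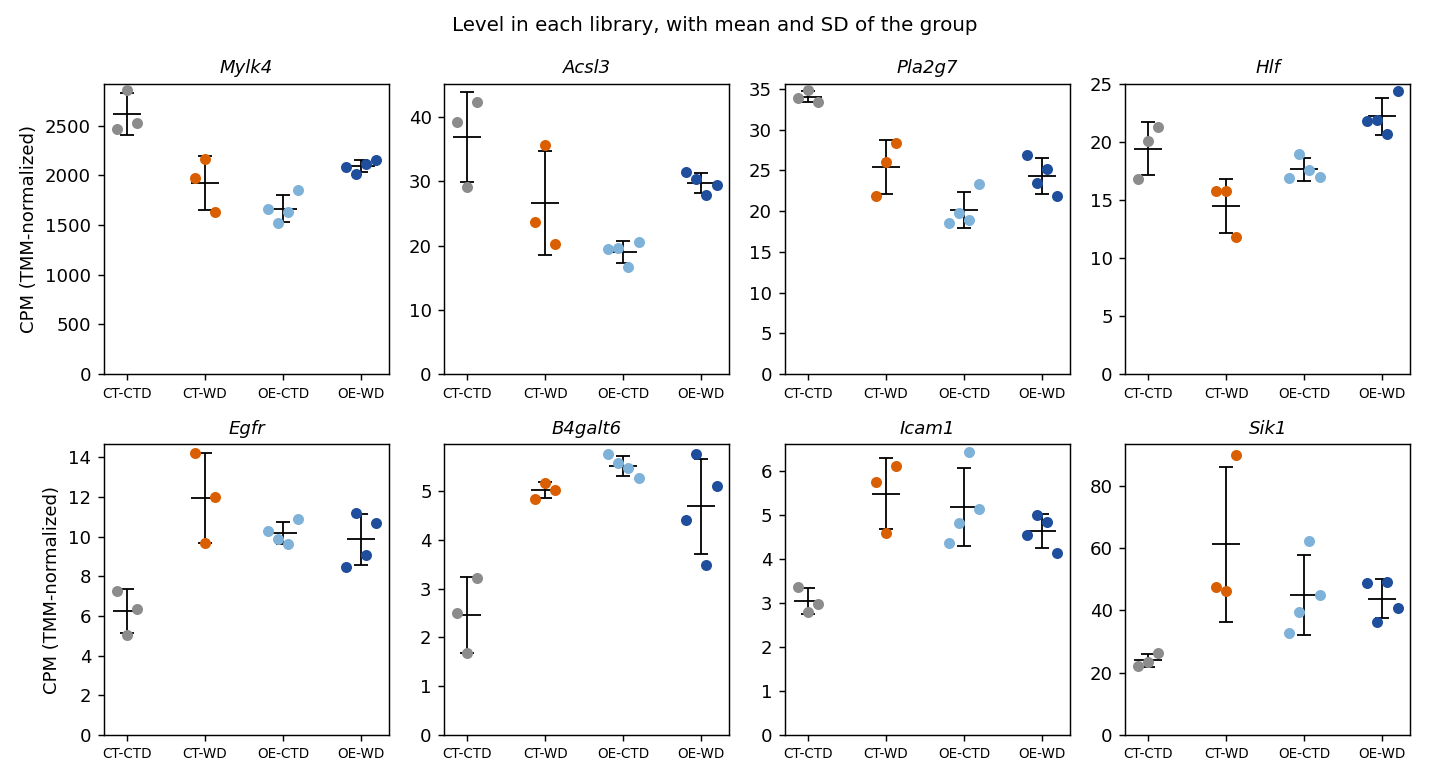
Level of 8 genes in each library in TMM-normalized CPM (vertical axis, from 0), by group (horizontal axis), with the group mean and SD as a line and whiskers; they are the 4 genes with the smallest unadjusted p in each direction of the interaction among protein-coding genes of at least 1 CPM. In Mylk4, Acsl3, Pla2g7 and Hlf the mean of CT-WD lies below CT-CTD and that of OE-WD above OE-CTD, and in Egfr, B4galt6, Icam1 and Sik1 CT-CTD lies below every other group.

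Opposite responses were also counted without the fitted spread, as genes in which the diet groups did not overlap in either genotype and moved in opposite directions. There were 30 such genes (0.194% of those tested), 20 with EC-Myc OE up and CT down (0.129%) and 10 with CT up and EC-Myc OE down (0.0647%). Genes without overlap in the same direction numbered 35 (0.226%), 22 up in both genotypes (0.142%) and 13 down (0.0841%). Opposite and same-direction genes were thus about equally frequent as labelled. In groups this small some genes separate in either way by the order of libraries alone, and how many was not worked out here. With the names of CT-WD and OE-CTD exchanged, the genes counted would be those in which the genotypes did not overlap on either diet. Separation by diet was not counted for that case. Of the 6 genes named next, Mylk4, Hlf, Fxyd5 and Ero1lb would then not separate by diet in both genotypes, by the levels printed. Katnal2 would, lower on western diet in CT and higher in EC-Myc OE, and levels of Rhbdl3 are not printed. Of the 30 genes, 25 were protein-coding with a mean of at least 1 CPM, and the 6 of these with the largest interaction were Ero1lb, Katnal2, Fxyd5, Mylk4, Hlf and Rhbdl3. Ero1lb, an oxidase of disulfide formation in the endoplasmic reticulum, was measured at 3.88, 3.81 and 5.28 CPM (CT-CTD), 3.47, 2.56 and 1.91 (CT-WD), 3.57, 3.89, 3.59 and 3.52 (OE-CTD) and 4.12, 4.07, 4.72 and 4.38 (OE-WD). Western diet libraries were all lower in CT and all higher in EC-Myc OE, and its interaction was 0.94 ± 0.27. Katnal2, of the katanin family of microtubule-severing proteins, was measured at 4.47, 3.47 and 3.53 CPM (CT-CTD), 3.11, 2.95 and 3.11 (CT-WD), 2.3, 2.21, 3.05 and 2.55 (OE-CTD) and 3.38, 3.79, 3.49 and 4.06 (OE-WD). The levels were low and the interaction was 0.87 ± 0.24. Fxyd5 was measured at 5.66, 4.64 and 6.19 CPM (CT-CTD), 8.68, 6.23 and 8.98 (CT-WD), 8.7, 9.57, 9.69 and 8.37 (OE-CTD) and 8.09, 7.5, 7.32 and 7.35 (OE-WD), the reverse arrangement, with western diet higher in CT and lower in EC-Myc OE.

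The list with the largest share of genes at the unadjusted level was that of immediate early genes, transcription factors and regulators that signals induce within minutes. Of 23 tested, 13 lay below and 0 above at the unadjusted level, against 1.66% and 1.04% of all genes, while edgeR called 0 of the 23 at the adjusted level. Without a filter on low counts it called 6 of them (adjusted p of 0.0108 for Junb, 0.0258 for Nr4a3, 0.0258 for Atf3, 0.0317 for Egr1, 0.032 for Btg2 and 0.0495 for Egr3, edgeR quasi-likelihood test, Benjamini-Hochberg). None of the other fits called any of the 23 at that level, and the value of Atf3 rested mainly on CT-WD 3, as given below. The median interaction was -1.23 [-1.44 to -0.64, 0 above, 9 to 16 below] (all genes, -0.0057), with a median change of 0.84 in CT and -0.14 in EC-Myc OE, and 22 of the 23 lay below 0. The list's score, the median deviation of its genes from their mean log2 CPM, was -0.395, -0.781 and -0.611 in CT-CTD and 0.316, -0.243 and 0.524 in CT-WD. In EC-Myc OE it ranged from -0.0941 to 0.483 with the diets overlapping. CT-CTD was therefore the group that stood apart, below the other 3 groups. The score of CT-WD 3 was the highest of all libraries, and without that library 9 genes were called and the median was -0.64. Without CT-WD 1 the median was -0.97, without OE-CTD 3 -0.90, with limma voom -0.88 and with the replicate block -0.95. Without CT-WD 2 the count was 16, and without any other library, with either size factor, with DESeq2 and with the blocks it ranged from 10 to 15.

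Junb, a subunit of the AP-1 factor, was measured at 18.9, 14.9 and 10.9 CPM (CT-CTD), 36, 19.4 and 34.1 (CT-WD), 46.4, 39.8, 60.5 and 29.1 (OE-CTD) and 41.3, 36, 30.3 and 27.8 (OE-WD). CT-CTD was the lowest group and did not overlap CT-WD, and OE-CTD held the highest library. Its interaction was -1.38 ± 0.35, and Junb overlaps Prdx2, measured at 138 CPM, so reads of the pair may not be separate. Btg2, an antiproliferative gene induced by p53 and growth signals, was measured at 22.3, 20.5 and 17.2 CPM (CT-CTD), 45.5, 29.6 and 80.8 (CT-WD), 43.2, 42.4, 49.5 and 28 (OE-CTD) and 56.1, 36.5, 37.3 and 45.6 (OE-WD). All CT-WD libraries were above all CT-CTD libraries, and the interaction was -1.27 ± 0.38. Nr4a3, an orphan nuclear receptor induced by exercise, was measured at 10.6, 4.06 and 5.76 CPM (CT-CTD), 30.8, 7.05 and 44.6 (CT-WD), 14.6, 15, 21.2 and 23.3 (OE-CTD) and 16.6, 15.5, 21.8 and 21.2 (OE-WD), with CT-WD 1 and 3 the highest of all, CT-WD 2 within the range of CT-CTD, and an interaction of -1.99 ± 0.61. Egr1, a zinc-finger factor, was measured at 21.3, 16.8 and 12.8 CPM (CT-CTD), 82.6, 20.1 and 52.3 (CT-WD), 117, 88.6, 50.2 and 15.9 (OE-CTD) and 65.4, 26.2, 45.2 and 20.5 (OE-WD). OE-CTD 4 was as low as CT-CTD while OE-CTD 1 was the highest of all libraries, so the spread within groups was wide and the interaction was -2.41 ± 0.79.

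The other members differed in how far they depended on CT-WD 3. Atf3, a stress-induced factor, was measured at 307 CPM in CT-WD 3 and at 10.7 to 31.9 in the other CT libraries. The interaction of -3.04 ± 0.99 was -0.64 without that library. Maff moved from -1.28 ± 0.53 to -0.44 and Klf4 from -1.23 ± 0.53 to -0.49 on leaving it out. Fos, which pairs with Jun proteins in AP-1, differed by -1.57 ± 0.67, Egr3 by -2.45 ± 0.78, Ier2 by -1.26 ± 0.4, Klf2 by -1.35 ± 0.47, Nr4a1 by -0.9 ± 0.33 and Zfp36, which destabilizes cytokine mRNA, by -0.81 ± 0.36. Members that did not pass included Jun at 0.037 ± 0.22, the 1 gene of the list above 0, Jund at -0.58 ± 0.24, Nr4a2 at -0.61 ± 0.66 and mouse Myc at -0.65 ± 0.44. Jun was the most abundant of these and was measured at 105, 178 and 156 CPM (CT-CTD), 160, 166 and 203 (CT-WD), 115, 103, 122 and 99.4 (OE-CTD) and 147, 125, 152 and 117 (OE-WD), with its diet groups overlapping in CT.

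Heat shock genes, which encode chaperones, had 4 of 15 at the unadjusted level, all below, against 1.66% of all genes. The median was -0.47 [-0.66 to -0.2, 0 above, 1 to 8 below] with all 15 below 0. These 4 calls rested on CT-WD 3. Hspa1b, an inducible Hsp70, was measured at 9.33, 13.3 and 14.6 CPM (CT-CTD), 19.3, 13.1 and 281 (CT-WD), 13.5, 20.5, 23.4 and 18.5 (OE-CTD) and 24.7, 15.3, 21.3 and 20.4 (OE-WD). CT-WD 3 was above every other library by more than 10-fold, and the interaction of -2.97 ± 1.02 was -0.28 without it. Hspa1a, a near-identical copy whose reads may be shared with Hspa1b, differed by -3.16 ± 1.09, Dnajb1 by -2.15 ± 0.69 and Hspb1 by -1.13 ± 0.43. Without CT-WD 3 the count was 1 and the median -0.20, without CT-WD 2 the count was 8 and without CT-CTD 3 or CT-WD 1 it was 6. DESeq2 called 2. At the adjusted level edgeR called 0 of the 15, and 3 without a filter on low counts (Dnajb1, Hspa1b and Hspa1a). Hsph1 at -0.18 ± 0.29 and Bag3 at -0.47 ± 0.2 did not pass. Xirp1, a protein of injured and remodelling fibres (1964 CPM in CT-WD 3), Srxn1, an Nrf2 target, and Irs2, an insulin receptor substrate, were also highest in CT-WD 3. Their interactions of -1.71 ± 0.61, -1.4 ± 0.55 and -1.5 ± 0.52 were -0.7, -0.29 and -0.56 without it.

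The clock factor Arntl (Bmal1) was measured at 14, 9.92 and 9.37 CPM (CT-CTD), 16.3, 24.1 and 37.3 (CT-WD), 11.8, 12.5, 12.2 and 10.8 (OE-CTD) and 15.4, 9.08, 11.3 and 11.4 (OE-WD). CT-WD libraries were the highest of all 14, OE-CTD was narrow, and OE-WD overlapped it, with an interaction of -1.23 ± 0.33 that was -0.87 without CT-WD 3. Of the 6 genes of its phase, Arntl was the 1 called, 2 lay above 0, and the median was -0.6 [-0.69 to -0.24, 0 above, 1 to 2 below]. It was -0.24 without CT-WD 3, -0.94 without both CT libraries numbered 1 and -0.13 on log2(FPKM + 1), and 2 genes were called without CT-WD 1. In the list of clock output genes of the opposite phase, 2 of 12 were called above (Dbp and Hlf) and 0 below, against 1.04% and 1.66% of all genes. Of the 12, 10 lay above 0, and the median was 0.35 [0.18 to 0.45, 2 to 4 above, 0 below], which was 0.18 without CT-WD 3. Hlf, a PAR-domain transcription factor, was measured at 16.8, 20.1 and 21.3 CPM (CT-CTD), 15.8, 15.8 and 11.8 (CT-WD), 16.9, 19, 17.6 and 17 (OE-CTD) and 21.8, 21.9, 20.7 and 24.4 (OE-WD). Western diet libraries were all lower in CT and all higher in EC-Myc OE, for an interaction of 0.75 ± 0.16. Dbp, of the same family, was measured at 73.4, 87.1 and 99.8 CPM (CT-CTD), 59.6, 48 and 37.3 (CT-WD), 126, 149, 121 and 130 (OE-CTD) and 98.3, 150, 115 and 119 (OE-WD). Its CT groups did not overlap while those of EC-Myc OE did, with an interaction of 0.72 ± 0.22, and Dbp overlaps Sphk2 at 18 CPM. Per2, a clock repressor, differed by 0.57 ± 0.19 and Nr1d1, a repressor of Arntl, by -0.049 ± 0.28. The count of the output genes was 4 without CT-CTD 1, CT-WD 1 or OE-CTD 3 and 3 without CT-CTD 2, OE-CTD 4, OE-WD 1 or OE-WD 3. The time of day at which muscle was taken was not given in the sources used here, and its part was not tested.

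Glucocorticoid-responsive genes had 4 of 22 called below (Foxo1, Klf15, Mt1 and Trim63) and 0 above, against 1.66% and 1.04% of all genes. The median was -0.32 [-0.46 to -0.17, 0 to 1 above, 1 to 6 below], from 0.54 in CT and 0.17 in EC-Myc OE. Trim63, the muscle ubiquitin ligase MuRF1, was measured at 335, 305 and 259 CPM (CT-CTD), 407, 948 and 863 (CT-WD), 240, 218, 264 and 270 (OE-CTD) and 398, 218, 235 and 245 (OE-WD). CT-WD 2 and 3 stood far above the other libraries, CT-WD 1 and OE-WD 1 came next, and the interaction was -1.16 ± 0.34. Foxo1, a factor that induces Trim63, differed by -0.78 ± 0.36, and without CT-WD 2 by -0.41. Klf15, a glucocorticoid-induced regulator of muscle metabolism, differed by -0.77 ± 0.29 and the metallothionein Mt1 by -0.79 ± 0.34. Among targets that did not pass, Fkbp5, a chaperone of the receptor, was at 0.38 ± 0.56 and Tsc22d3 (GILZ) at 0.093 ± 0.28, with signs that changed on leaving out single libraries. Tsc22d3 had changes of 0.41 in CT and 0.5 in EC-Myc OE, similar in size. The list's count was 1 without CT-CTD 2, 5 without CT-CTD 3 and 6 without CT-WD 1, and it was 2 below and 1 above without CT-WD 3, 2 without OE-CTD 3 and 2 without OE-WD 3.

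The atrophy list, which shares Foxo1 and Trim63 with the one above, had 3 of 17 below and 1 above, with a median of -0.17 [-0.25 to -0.1, 0 to 1 above, 1 to 3 below]. Gabarapl1, of the autophagy machinery, differed by -0.73 ± 0.24. Mstn, myostatin, the growth inhibitor secreted by muscle, was measured at 94.3, 126 and 134 CPM (CT-CTD), 78.8, 97.4 and 100 (CT-WD), 59.9, 62.2, 59.5 and 77.4 (OE-CTD) and 84.8, 83.2, 71.5 and 81.5 (OE-WD). The western diet mean was lower in CT and higher in EC-Myc OE, and the diet groups overlapped at CT-CTD 1 and at OE-CTD 4, with an interaction of 0.67 ± 0.18. Fbxo32, the ligase atrogin-1, was at -0.051 ± 0.34 with changes of 0.52 and 0.47, and Foxo3 at -0.031 ± 0.29. Of the 17 members 14 lay below 0 and 3 above. Without CT-WD 3 its counts were 1 above and 1 below, and Mstn was not called without CT-CTD 3 or CT-WD 1.

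Genes of insulin signalling had 2 of 20 called below (1.66% of all genes) and a median of 0.034 [-0.038 to 0.083, 0 above, 1 to 2 below]. Socs3, which inhibits cytokine and insulin signalling, was measured at 7.79, 3.18 and 1.51 CPM (CT-CTD), 9.69, 3.53 and 7.91 (CT-WD), 8.74, 9.27, 11.9 and 3.11 (OE-CTD) and 3.46, 5.65, 3.57 and 2.77 (OE-WD). The diet groups overlapped in both genotypes, OE-CTD 4 being as low as OE-WD, and the interaction was -1.86 ± 0.69 from 0.77 in CT and -1.1 in EC-Myc OE. Irs2 was the other, and 1 was called without CT-WD 3. Among 17 genes of glucose uptake 1 lay above and 1 below, with a median of 0.13 [0.06 to 0.23, 0 to 1 above, 0 to 1 below]. Rabif, which stabilizes the Rab proteins of GLUT4 vesicles, was measured at 53.4, 36.9 and 26.2 CPM (CT-CTD), 54.6, 34.1 and 36.1 (CT-WD), 21.7, 13.7, 12.9 and 22.4 (OE-CTD) and 44.2, 29.3, 39.7 and 31.1 (OE-WD). The CT groups overlapped fully and the EC-Myc OE groups did not, with western diet higher, for an interaction of 0.93 ± 0.36 from 0.1 and 1.03. With the names exchanged 1.03 would not be a change by diet but the difference between genotypes on the western diet. Slc2a1, the transporter GLUT1, differed by -0.86 ± 0.34, and Slc2a4, the insulin-regulated GLUT4, by 0.084 ± 0.13. Slc2a1 was not called without any 1 of CT-CTD 2, CT-CTD 3, CT-WD 1 and CT-WD 3, nor Rabif without CT-CTD 1. The median of the list was 0.23 without CT-CTD 1 and 0.060 without CT-WD 1. Glycogen genes had 0 of 16 called, 10 above 0 and 6 below, and a median of 0.063 [0.017 to 0.077, 0 above, 0 to 1 below]. Glycolysis genes had 0 of 15 called, 5 above 0 and 10 below, and -0.082 [-0.18 to -0.059, 0 above, 0 below].

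Lipogenic genes under Srebp1 had 3 of 15 called above, against 1.04% of all genes, and all 15 lay above 0. The median was 0.61 [0.17 to 1, 0 to 7 above, 0 below], from -0.45 in CT and 0.084 in EC-Myc OE. Srebf1, which encodes Srebp1, was measured at 96, 96.8 and 78.5 CPM (CT-CTD), 80.6, 58.5 and 40.5 (CT-WD), 100, 109, 104 and 99 (OE-CTD) and 104, 116, 112 and 120 (OE-WD). CT-WD 2 and 3 were the lowest libraries, and those of EC-Myc OE lay close together, for an interaction of 0.73 ± 0.22. Srebf1 overlaps Rai1, at 38.6 CPM. Fasn, fatty acid synthase, was measured at 404, 39.1 and 19.3 CPM (CT-CTD), 50.8, 20.1 and 12 (CT-WD), 34.8, 31.6, 75.7 and 53.2 (OE-CTD) and 42.4, 69.4, 27.8 and 70.1 (OE-WD). CT-CTD 1 was more than 5-fold above every other library, and the interaction of 2.58 ± 1.08 was 0.18 without it. Thrsp, a regulator of lipogenesis, moved from 1.46 ± 0.64 to 0.2, Acaca, acetyl-CoA carboxylase, from 0.91 ± 0.43 to 0.17 and the desaturase Scd1 from 1.16 ± 0.91 to 0.31 on leaving out CT-CTD 1. The median of the list was then 0.17, and it was higher, at the upper end of the range given, without CT-WD 1. The count was 7 without CT-WD 1, 4 without CT-CTD 2 or CT-CTD 3, 1 without CT-WD 2, 0 without CT-WD 3, 1 without OE-WD 2, 2 without CT-CTD 1, any of OE-CTD 1 to 3 or OE-WD 4, 2 with DESeq2, 8 with the replicate block, 6 with the block in CT alone and 6 with the block of library names.

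The score of adipocyte markers was highest in CT-CTD 1 (1.15), the library with the highest Fasn. None of the 10 was called by edgeR at either level (DESeq2, 0 at the unadjusted level), with a median of 0.68 [0.07 to 1.9, 0 to 5 above, 0 below], from -0.57 in CT and -0.09 in EC-Myc OE. Their summed level, mostly Car3 (mean 1690 CPM), was 2221, 1719 and 1718 CPM in CT-CTD, 1763, 1675 and 1602 in CT-WD and 1822 to 2583 in EC-Myc OE, and no marker was 0 in all libraries. Adipoq, the adipokine of fat cells, was measured at 18, 10.6 and 5.56 CPM (CT-CTD), 15.3, 3.87 and 1.78 (CT-WD), 10.5, 9.93, 15.6 and 5.82 (OE-CTD) and 7.47, 13.5, 9.32 and 8.84 (OE-WD). CT-CTD 1 and CT-WD 1 were the highest CT libraries. The lipid droplet gene Plin1 differed by 0.97 ± 0.78, Cidec by 0.96 ± 0.7, Lep by 0.61 ± 0.98 and Car3, which muscle also expresses, by -0.02 ± 0.16. Without CT-CTD 1 the median was 0.070, and without CT-WD 1 it was 1.90 with 5 called, while the replicate block gave 4, the block in CT alone 3, the block of library names 2 and leaving out CT-CTD 3 gave 2. The part of fat cells in the lipogenic values was not tested, and fewer fat cells cannot be told apart from less RNA per cell in such samples.

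Genes of cholesterol synthesis under Srebp2 had 1 of 21 called above, Hsd17b7 at 0.76 ± 0.3, with a median of 0.14 [-0.026 to 0.42, 1 to 3 above, 0 below] that was -0.015 without CT-CTD 1 and -0.026 without CT-WD 2, and 3 were called with 0.42 without CT-WD 1. Leaving out CT-CTD 3 or CT-WD 2 gave 2, the replicate block 3 and the block in CT alone 2. In the list of fatty acid uptake and activation Acsl3 was the 1 of 13 called, and the median was -0.036 [-0.2 to 0.065, 1 above, 0 to 1 below], which was -0.20 without CT-CTD 1. PPAR-responsive genes had 1 of 17 called below, Ucp2, a mitochondrial uncoupling protein family member, at -0.6 ± 0.21, with 14 below 0 and a median of -0.35 [-0.44 to -0.2, 0 above, 0 to 3 below]. Pdk4, which spares glucose by blocking pyruvate dehydrogenase, was at -0.25 ± 0.33 and Angptl4, an inhibitor of lipoprotein lipase, at -0.7 ± 0.38. Neither passed. The count was 0 without CT-CTD 2 or OE-WD 3, 3 without CT-CTD 3 and 2 without CT-CTD 1, CT-WD 1, CT-WD 3 or OE-CTD 4, and the median was -0.20 without CT-CTD 2, -0.22 without CT-WD 3 and -0.44 without CT-CTD 3.

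Of all genes tested 7865 of 15458 lay below 0. Of 83 nuclear genes of oxidative phosphorylation, edgeR and DESeq2 called 0 at the unadjusted level, yet 80 lay below 0, with a median of -0.3 [-0.38 to -0.23, 0 above, 0 below] from 0.12 in CT and -0.17 in EC-Myc OE. The score was -0.0911, -0.00242 and 0.0270 in CT-CTD, -0.0771, 0.140 and 0.193 in CT-WD, while OE-CTD ranged from -0.00968 to 0.166 and OE-WD from -0.125 to -0.0687. OE-WD libraries lay below all OE-CTD libraries, and CT-WD 2 and 3 were the highest CT libraries while CT-WD 1 was low. Ndufv1, a subunit of complex I, was measured at 361, 364 and 367 CPM (CT-CTD), 369, 410 and 406 (CT-WD), 437, 412, 392 and 408 (OE-CTD) and 373, 364, 375 and 382 (OE-WD). Its diet groups did not overlap in either genotype, in opposite directions, with an interaction of -0.26 ± 0.1, well under 1.5-fold. Without both CT libraries numbered 1, 4 of the 83 were called below. All 18 genes of fatty acid oxidation lay below 0 (0 called by edgeR or DESeq2, median -0.19 [-0.31 to -0.14, 0 above, 0 to 1 below]). Of 77 mitochondrial ribosomal protein genes 72 lay below 0 (0 called by edgeR, median -0.16 [-0.23 to -0.087, 0 above, 0 below]), and of 79 cytosolic ribosomal protein genes 74 did (1 called, median -0.23 [-0.31 to -0.19, 0 above, 0 to 2 below]).

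The called ribosomal gene was Rpl21, at -0.88 ± 0.36, whose reads may be shared with processed copies. Genes on mitochondrial DNA had 0 of 13 called, 4 above 0 and 9 below, and a median of -0.049 [-0.24 to 0.1, 0 above, 0 to 1 below], and regulators of the PGC-1 and ERR family 0 of 11 and -0.1 [-0.16 to -0.028, 0 to 1 above, 0 to 1 below]. The replicate block called 1 above and 1 below in each of these lists. Among the regulators, the block in CT alone and that of library names each called 1 above. The genes of such a list share a library's composition, so members that lean the same way are not independent of each other.

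Among contractile and fibre-type genes few were called. Slow fibre genes had 0 of 12 called and a median of -0.26 [-0.4 to -0.1, 0 above, 0 to 1 below], fast fibre genes 0 of 14 and -0.05 [-0.16 to 0.12, 0 to 1 above, 0 below], and skeletal muscle markers 0 of 10 and -0.062 [-0.18 to 0.093, 0 above, 0 below]. Giant sarcomere proteins and muscle kinases had 3 of 19 called (Mylk4 above, Alpk2 and Xirp1 below) with a median of -0.029 [-0.15 to 0.035, 1 above, 0 to 2 below]. Alpk2, an alpha-kinase, differed by -0.63 ± 0.27, and neither Alpk2 nor Xirp1 was called without CT-WD 3. Calcium release and RGK genes had 0 of 18 and 0.0084 [-0.086 to 0.069, 0 above, 0 to 1 below]. Neuromuscular junction and denervation genes had 1 of 18, Myog, and -0.026 [-0.11 to 0.056, 0 to 1 above, 1 to 3 below]. Of 13 myogenic and regeneration genes Myh8, the perinatal myosin heavy chain, was called above at 1.81 ± 0.61, which was 0.81 without CT-CTD 2, and the myogenic factor Myod1 was at 0.14 ± 0.23 (list median 0.036 [-0.08 to 0.12, 0 to 1 above, 0 to 1 below]).

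Endothelial markers, which bear most directly on the cells that carry active transgene, had 1 of 20 called below, against 1.66% of all genes. The median was -0.1 [-0.19 to -0.044, 0 to 1 above, 0 to 2 below], from 0.21 in CT and 0.067 in EC-Myc OE. Their summed level was 715, 721 and 791 CPM in CT-CTD, 819, 757 and 905 in CT-WD and 772 to 902 in EC-Myc OE, with Eng the most abundant and none 0 in all libraries. Cldn5, a tight junction protein of endothelium, was measured at 15.6, 15.8 and 12.6 CPM (CT-CTD), 30.7, 22 and 20.5 (CT-WD), 19.9, 16.7, 20.1 and 16.4 (OE-CTD) and 21.2, 14, 25.7 and 17.8 (OE-WD). CT-WD lay above CT-CTD in all libraries and the EC-Myc OE groups overlapped, with an interaction of -0.63 ± 0.26. Cldn5 was not called without any 1 of CT-CTD 3, CT-WD 1, OE-CTD 1, OE-CTD 3 and OE-WD 2. Pecam1 (CD31) was at -0.077 ± 0.14. Angiogenic, Notch and sphingosine genes had 0 of 15 called and a median of -0.12 [-0.21 to -0.065, 0 above, 0 to 1 below], and the list of inflammation and adhesion 2 of 11 below, Icam1 and the chemokine Ccl2 at -2.36 ± 1.04 from levels of at most 1.40 CPM, with -0.14 [-0.29 to -0.013, 0 to 1 above, 1 to 3 below]. Of the latter 1 was called below without any 1 of CT-CTD 1, CT-CTD 3, CT-WD 3, OE-CTD 2, OE-CTD 3, OE-WD 1, OE-WD 3 and OE-WD 4, and 3 without OE-CTD 4. Without CT-WD 1 there was 1 on each side and the median was -0.013.

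Markers of other cells moved with single libraries. Macrophage markers had 1 of 12 called below and a median of -0.66 [-0.99 to -0.052, 0 above, 0 to 5 below]. Their summed level, led by Lyz2, was 93.6, 56.4 and 51.7 CPM in CT-CTD, 148, 76.4 and 63.2 in CT-WD, with OE-CTD between 92.1 and 147 and OE-WD between 90.3 and 146, and no marker was 0 in all libraries. C1qa, a complement component made by macrophages, differed by -0.78 ± 0.34. Without CT-WD 1 the median was -0.052. The count was 0 without any 1 of CT-CTD 2, CT-CTD 3, CT-WD 1, OE-CTD 3, OE-WD 1 and OE-WD 3, 4 without CT-CTD 1 or OE-WD 2, 3 without CT-WD 2, 5 without CT-WD 3, 5 with the replicate block and 4 with either block in CT. Fibro-adipogenic progenitor markers had 1 of 8 called, Pdgfra at -0.62 ± 0.28, and a median of -0.3 [-0.47 to 0.012, 0 above, 0 to 1 below] that was 0.012 without CT-WD 1. Pdgfra was not called without any 1 of CT-CTD 3, CT-WD 1, OE-CTD 2 to 4, OE-WD 1, OE-WD 3 and OE-WD 4, nor with the block in CT alone or that of library names. Collagens (0 of 40, median -0.13 [-0.28 to 0.19, 0 to 4 above, 0 to 3 below]) and other extracellular matrix genes (1 of 20, Fbn1 at -0.9 ± 0.36, median -0.24 [-0.51 to 0.13, 0 to 2 above, 0 to 3 below]) changed sign to 0.19 and 0.13 without that library, with 4 and 2 called above. Tendon markers had 0 of 9 called and went from -0.32 [-0.84 to 1.8, 0 to 6 above, 0 below] to 1.80 with 6 called above, with Tnmd at -0.51 ± 0.85 and Fmod at -0.32 ± 0.95. The tendon median was also above 0 with all libraries kept and a block, with 0 called. It was 0.0994 with the replicate block, 0.264 with the block in CT alone and 0.304 with that of library names.

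Epidermal and hair follicle markers (0 of 12 called by edgeR) were scattered over libraries, from 16 CPM summed in OE-CTD 4 to 162 in OE-WD 3, and their median of 0.47 [-0.67 to 2.55, 0 to 1 above, 0 below] was -0.67 without CT-CTD 1, -0.10 without OE-WD 3 and 2.55 with 1 called above without CT-WD 1. The count was also 1 without OE-WD 2 and with the replicate block. Krt5 and Krt14, keratins of the basal epidermis, differed by 0.77 ± 1.58 and 0.48 ± 1.67. Medians of the remaining markers were 0.014 [-0.31 to 0.29, 0 above, 0 below] for Schwann cells (10 tested), 0.019 [-0.27 to 0.37, 0 above, 0 below] for blood (4), 0.075 [-0.015 to 0.15, 0 above, 0 below] for pericytes and smooth muscle (8) and -0.095 [-0.36 to 0.11, 0 above, 0 below] for lymphocytes (2), with 0 called. The part of these cells in the gene values was not tested.

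Ribosome biogenesis genes, which Myc is known to activate, had 0 of 21 called and a median of -0.046 [-0.041 to 0.034, 0 to 1 above, 0 below], the Myc network 0 of 12 and -0.1 [-0.18 to 0.037, 0 above, 0 to 1 below], and cell cycle genes 0 of 14 and 0.017 [-0.069 to 0.21, 0 to 2 above, 0 below]. For these 3 lists DESeq2 also called 0 at the unadjusted level. Leaving out CT-CTD 1, CT-WD 3 or OE-CTD 4 gave 1 in ribosome biogenesis, as did the replicate block, the block in CT alone and that of library names. Leaving out CT-WD 2 gave 1 in the Myc network, whose median was 0.037 without CT-WD 1. In the cell cycle, leaving out CT-WD 1 gave 2 and leaving out CT-CTD 1 gave 1. The proteasome had 0 of 42 and -0.11 [-0.16 to -0.079, 0 to 1 above, 0 below], and genes of Atf4 and the unfolded protein response 0 of 16 and -0.13 [-0.23 to -0.062, 0 above, 0 to 1 below]. Metallothioneins and Nrf2 targets had 2 of 8 below (1.66% of all genes) and -0.19 [-0.29 to -0.086, 0 above, 0 to 2 below], and the S100 family 0 of 8 and -0.25 [-0.41 to -0.058, 0 above, 0 to 3 below].

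**Figure D3:**
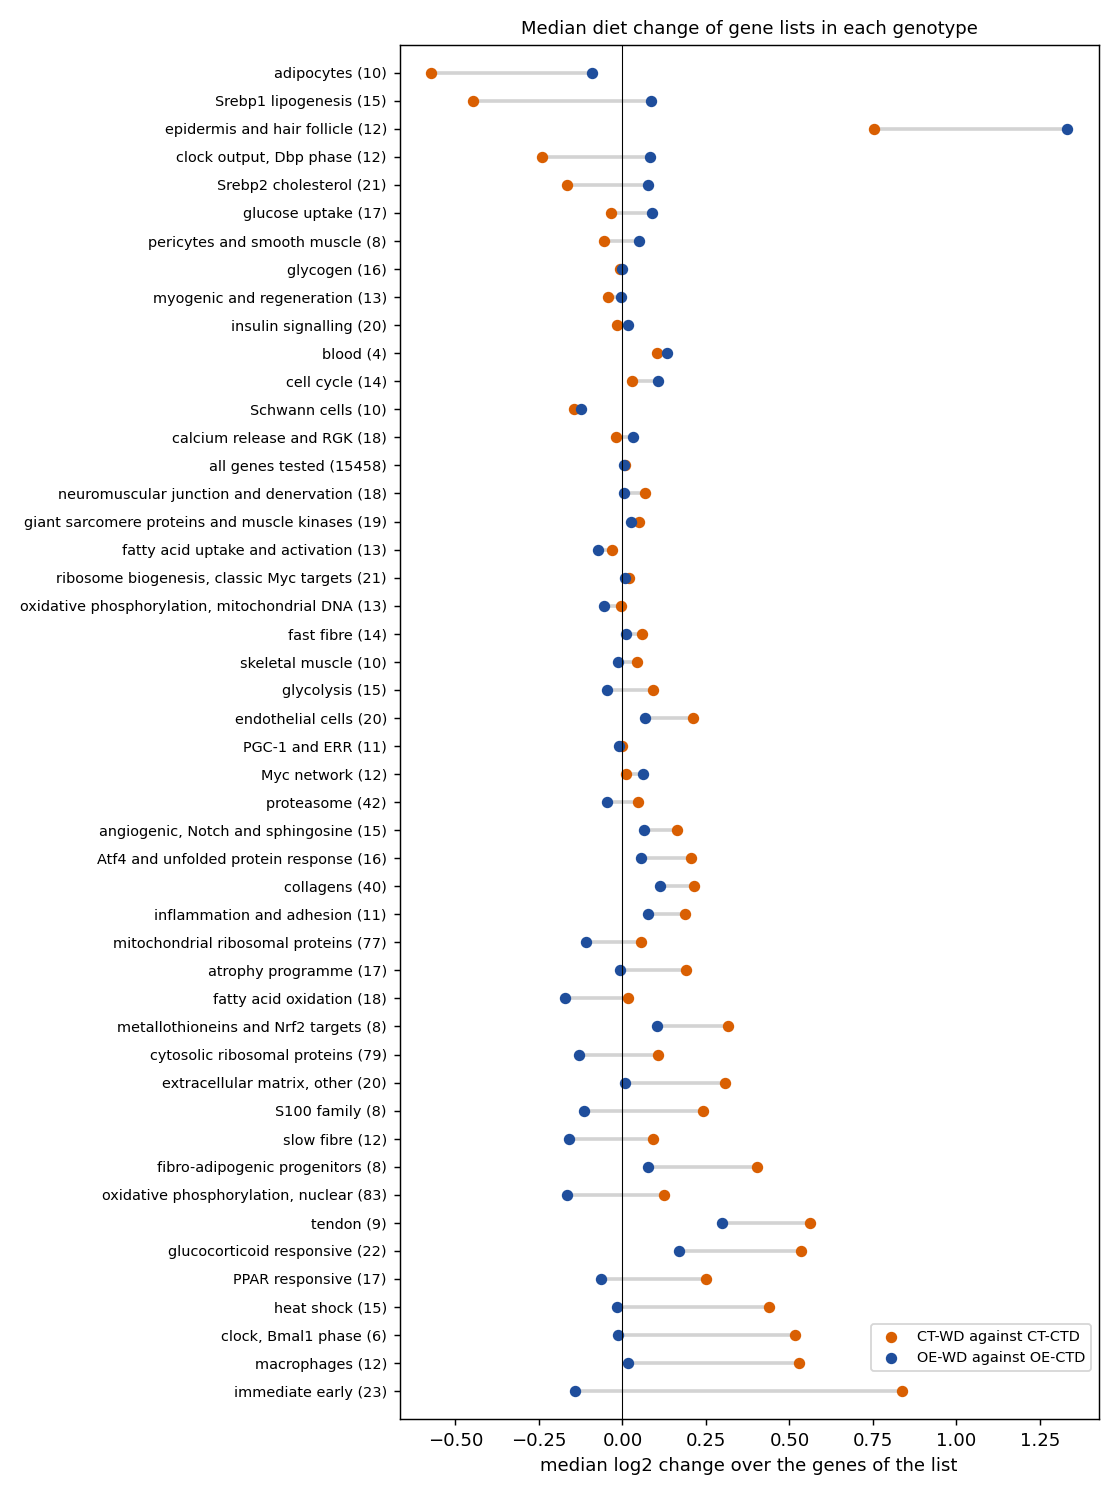
Median log2 change by western diet over the tested genes of each list (number in parentheses), in CT (orange) and in EC-Myc OE (blue), for every list with at least 3 genes tested and for all genes, ordered by the median interaction. The widest gap is that of immediate early genes, 0.84 in CT against -0.14 in EC-Myc OE, and most lists lie close to all genes.

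Several genes that the study discusses were read in the same contrast. Zbtb16, a glucocorticoid-induced zinc-finger factor, was measured at 82.1, 79.5 and 98.8 CPM (CT-CTD), 117, 136 and 181 (CT-WD), 40.8, 46.6, 44.1 and 39.3 (OE-CTD) and 131, 90.3, 89.5 and 89.5 (OE-WD). Libraries labelled western diet lay above those labelled control diet in both genotypes without overlap, with fitted changes of 0.74 in CT and 1.23 in EC-Myc OE, and the interaction of 0.49 ± 0.22 was under 1.5-fold. All OE-WD libraries lay below CT-WD but for OE-WD 1, which lay within its range. With the names exchanged, 1.23 would be the difference between genotypes on the western diet and 0.74 that on the control diet. Rrad, an RGK GTPase, was at -0.76 ± 0.71 and changed sign without both CT libraries numbered 1. Wnt10a, a Wnt ligand, was at 1.23 ± 0.81 from levels under 1 CPM, and S100a14 at 1 ± 1.42 from levels of at most 1.40 CPM. S100a3, with 0 to 38 counts a library, was not tested.

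Promoters of the genes were read for 5 motifs on both strands: the cAMP response element TGACGTCA, the E-box CACGTG, the heat shock element, the D-box TTATGTAA and the serum response element. The window was 250 bases before to 50 after each start, from RefSeq. TGACGTCA was in 1.88% of all 27025 promoters and in 3.09% of the 11033 matched to genes tested. It was in 8 of 175 matched genes with EC-Myc OE below CT (4.57%) and in 1 of 104 above (0.962%), and in 2 of 19 immediate early genes, Btg2 and Dusp1. The E-box was in 10.1% of tested genes, 10.3% of those below and 10.6% of those above, and the heat shock element in 0 of both against 0.435%. The D-box was in 0 below and 1 above (0.499% of tested genes), and the serum response element in 2.86% below and 0.962% above (1.34%). Among lists, the heat shock element was in 2 of 11 matched heat shock genes (18.2%, Hspe1 and Hsph1), and in none of the immediate early or clock output genes. The E-box was in 4 of 19 immediate early genes (21.1%), 2 of 11 heat shock genes (18.2%) and 4 of 11 clock output genes (36.4%). Of the other motifs, TGACGTCA was in 1 of the 11 clock output genes (Hlf) and the D-box in 1 (Per3), and the serum response element in 1 of the 19 immediate early genes (Zfp36). These are counts of letters and say nothing of binding. Btg2 and Hlf are printed because each holds TGACGTCA and they lie in opposite directions of the interaction, a choice made after the search. In Btg2 (GRCm38.p6, chr1:134079106-134079405, minus strand) the capitals, which mark the element, begin 166 bases before the start. In Hlf (chr11:90390868-90391167, minus strand) they begin 9 bases before it.
Btg2: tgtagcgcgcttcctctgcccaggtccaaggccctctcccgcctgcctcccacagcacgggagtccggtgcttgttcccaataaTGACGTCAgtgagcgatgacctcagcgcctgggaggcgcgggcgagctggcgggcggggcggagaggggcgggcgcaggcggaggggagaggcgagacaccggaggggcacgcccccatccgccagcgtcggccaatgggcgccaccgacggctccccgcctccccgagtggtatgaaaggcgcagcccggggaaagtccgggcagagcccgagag
Hlf: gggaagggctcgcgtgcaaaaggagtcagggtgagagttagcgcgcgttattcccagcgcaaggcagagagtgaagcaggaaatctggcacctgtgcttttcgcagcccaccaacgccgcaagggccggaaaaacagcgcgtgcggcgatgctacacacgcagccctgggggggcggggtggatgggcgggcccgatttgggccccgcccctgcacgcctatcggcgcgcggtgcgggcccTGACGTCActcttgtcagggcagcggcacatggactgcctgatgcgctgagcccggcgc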

How the data were processed

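Poly-A RNA of skeletal muscle from male mice was sequenced as 14 libraries in 4 groups. The deposited count table holds reads per gene (54532 genes) as the authors counted them, with HISAT2 2.0.5 and featureCounts 1.5.0-p3 named in the submitters' processing notes. The FPKM values deposited by the authors are scaled to a library total between 79.9% and 98.0% of the summed counts and were used as an alternative. The strand setting was not given in the sources used here, so reads of overlapping or antisense genes may be mixed. Gene positions are those of the count table (mm10), and 53585 of 54495 shared identifiers (98.3%) had the same position in GENCODE M21.

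Counts were analysed in R 4.3.3 with edgeR 4.0.16 (filterByExpr, TMM, quasi-likelihood F test, Benjamini-Hochberg), in a model of 4 group means fitted to all 14 libraries. The filter left 15458 genes and removed at most 0.0695% of a library's counts, and the biological coefficient of variation was 17%. Motifs were searched in promoters of RefSeq (GRCm38.p6), and of 22 genes under rules (a) and (c) 15 had one in the table. Genes were counted at 1.5-fold with adjusted, or unadjusted, p under 0.05. The fit was also tried on simulated counts, and no result given here rests on that check. Alternatives were RLE size factors, DESeq2 1.42.0, limma 3.58.1 voom with sample weights, no filter (at least 1 count), limma on log2(FPKM + 1) and log2(FPKM + 0.1), a replicate block within genotype or in CT alone, and leaving out each library. Fits without libraries that stood apart (both CT numbered 1, both EC-Myc OE numbered 4, and these 4), and a fit with a block that sets the CT libraries numbered 1 apart by their names, were chosen after seeing the data. DESeq2 filters by a target level that was set to 0.05, the level counted here, after its default of 0.1 had given 9 genes in place of 3.

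Named genes were (a) the 10 protein-coding genes of at least 1 CPM with the smallest p in each direction at the unadjusted level, (b) up to 3 genes of each pathway list at that level, (c) the 6 with opposite responses without overlap and the largest interaction, (d) 11 genes the study names, and (e) 46 list members and marker genes given as examples, which were chosen after their values were seen. The members and lists were chosen with earlier results of these data known. For (e) a shorter selection without members of near-zero interaction was tried and set aside, since it left out genes whose sign changed between fits.

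The labels do not say what a replicate number stands for. By correlation across genes of deviations from the group mean, CT libraries of equal number had r = 0.385, 0.123 and 0.203 (numbers 1, 2 and 3), but CT-CTD 2 was slightly closer to CT-WD 3 (0.142), so a pairing of 2 and 3 is weak. The library names set the CT libraries numbered 1 apart from the rest but do not pair 2 and 3. In EC-Myc OE r was 0.0711, 0.138, 0.142 and 0.338, the highest value of its OE-CTD library for numbers 2, 3 and 4, while OE-CTD 1 was slightly closer to OE-WD 2 (0.0938). Whether libraries of equal number are paired is not known. Blocks were therefore alternatives only.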

Additional observations from a re-analysis of the deposited data

Results flagged for a closer look

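In groups of 4 libraries, a library was marked when its gap to the nearest other, as a share of the group's range, passed the 95% critical value of Dixon's test. This held for 7 of 152 genes and groups checked, and chance marks about 1 in 20. In OE-WD 3, Klf2 stood at 52.8 CPM (others 31.8 to 33.3), Ostn at 17.7 (19.5 to 19.8) and Per2 at 26.7 (33.3 to 33.7). In OE-WD 1, Zbtb16 stood at 131 CPM (89.5 to 90.3) and Slc2a4 at 641 (589 to 595). Pdgfra stood at 26.5 CPM in OE-WD 2 (17.9 to 18.8) and Foxo3 at 37.7 in OE-CTD 4 (24.6 to 24.7). Groups of 3 cannot be checked in this way, so the CT libraries that stood apart are not among them.

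With the groups as labelled, for 11 named genes every western diet library lay on one side of the control diet libraries in CT and on the other side in EC-Myc OE. Of all 15458 genes tested 30 (0.194%) did so. Rule (c) picks 6 genes by this separation and others were chosen after their values were seen, so choice decides the number 11. With the names of CT-WD and OE-CTD exchanged, the arrangement would be a separation of genotypes on each diet. By the levels printed, Mylk4, Hlf, Fxyd5, Ero1lb, Ostn, Tmem233 and Ndufv1 would then not separate by diet in both genotypes. Katnal2 and Gm11716 would, in opposite directions. Levels of Rhbdl3 and Sec22c are not printed. With EC-Myc OE up and CT down the interactions (log2) were 0.943 for Ero1lb, 0.867 for Katnal2, 0.775 for Mylk4, 0.752 for Hlf, 0.73 for Rhbdl3, 0.652 for Sec22c and 0.5 for Tmem233. With CT up and EC-Myc OE down they were -0.8 for Fxyd5, -0.708 for Gm11716, -0.508 for Ostn and -0.26 for Ndufv1. Separation in opposite directions is a description of the levels. The interaction of these genes was tested and did not pass the adjusted level (edgeR quasi-likelihood test, Benjamini-Hochberg).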

How the results depend on the processing

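At the adjusted level the interaction called 0 genes. DESeq2 called 3 (9 at its default filtering target of 0.1), the fit without a filter on low counts 29, the fits that leave out 1 library 0 to 1, and the fits without both CT libraries numbered 1 and without the 4 libraries that stood apart 1 each (St3gal1). At the unadjusted level the 417 genes became 647 with limma voom, 904 without a filter, 134 on log2(FPKM + 1), 404 on log2(FPKM + 0.1), 419 with RLE, 434 with DESeq2, 744 without both CT libraries numbered 1, 451 without both EC-Myc OE libraries numbered 4 and 849 without these 4 libraries. Leaving out single libraries gave 368 to 777. Of the 417, 303 were also called without CT-WD 1 and 220 without CT-WD 3.

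With a replicate block within genotype, 1 gene passed the adjusted level (Mylk4) and 516 the unadjusted level. With the block in CT alone, whose pairing rests on a weak correlation, 468 passed the unadjusted level. With a block by library names in CT, which sets its libraries numbered 1 apart, 470 genes were called without adjustment and none with it. With these blocks in turn Fmod was 0.358, 0.442 and 0.528 and Nr1d1 0.0148, 0.00492 and 0.0024, with signs opposite to those printed.

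Of 2626 values for 101 named genes, 73 changed sign, in genes of small or variable interaction. The choice of example genes decides this number, so it says nothing of how stable other genes are. Leaving out single libraries, the interaction ranged from -0.103 to 0.0372 for Car3, -0.357 to 0.0863 for Fbxo32, -0.254 to 0.751 for Fkbp5, -0.836 to 1.8 for Fmod, -0.218 to 0.146 for Foxo3, -0.375 to 0.222 for Hsph1, -0.129 to 0.231 for Jun, -2.3 to 3.17 for Krt14, -1.43 to 3.52 for Krt5, -0.526 to 1.8 for Lep, -0.0618 to 0.329 for Myod1, -0.23 to 0.272 for Nr1d1, -0.183 to 0.0383 for Pecam1, -0.968 to 2.68 for S100a14, -1.15 to 1.37 for Tnmd and -0.168 to 0.254 for Tsc22d3.

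Signs also changed with limma voom for Fkbp5 (-0.117), Fmod (0.694), Hsph1 (0.000774), Krt14 (-0.309), Nr1d1 (0.0399), Nr4a2 (0.228) and Tnmd (0.298). On log2(FPKM + 1) they did for Fmod (0.358), Lep (-0.13) and Nr1d1 (0.0114), and on log2(FPKM + 0.1) for Fmod (0.394), Nr1d1 (0.022) and Tnmd (0.0161). Without both CT libraries numbered 1 the values were 1.29 for Fmod, 0.262 for Nr1d1, 0.0785 for Rrad, 0.726 for Tnmd and -0.076 for Tsc22d3. Without these and the EC-Myc OE libraries numbered 4 they were 1.33, 0.261, 0.176, 0.828 and -0.0298. Without both EC-Myc OE libraries numbered 4 Fbxo32 was 0.0903. Of 1222 list medians 50 moved by more than 1 SD of the list score within groups.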

Other observations

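Ostn (osteocrin, a peptide secreted by muscle and bone) was measured at 14.7, 14.8 and 14.3 CPM (CT-CTD), 19.6, 16.9 and 17.1 (CT-WD), 20, 22.9, 23.7 and 22.5 (OE-CTD) and 19.5, 19.8, 17.7 and 19.8 (OE-WD), higher on western diet in CT and lower in EC-Myc OE without overlap, with an interaction of -0.51 ± 0.13. Tmem233, a membrane protein gene well expressed in these samples, had the reverse arrangement at 166, 196 and 152 CPM (CT-CTD), 137, 142 and 121 (CT-WD), 140, 158, 148 and 158 (OE-CTD) and 159, 172, 170 and 164 (OE-WD) and 0.5 ± 0.13. Both lay under 1.5-fold.

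Gm11716, a noncoding gene antisense to Pitpnc1 (chr11:107338050-107344804), was measured at 14.7, 12.2 and 15.1 CPM (CT-CTD), 16.6, 15.6 and 17.8 (CT-WD), 20.2, 19.2, 17.5 and 17.6 (OE-CTD) and 13.6, 12.9, 14.1 and 13.7 (OE-WD). It had an interaction of -0.71 ± 0.14 and passed the adjusted level in DESeq2 (adjusted p = 0.0297, Benjamini-Hochberg; 0.675 in edgeR). Pitpnc1, at 53.2 CPM, overlaps it, so its reads are uncertain.

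Ucp1, the uncoupling protein of brown and beige fat, had 490 counts in CT-CTD 1, 73 in OE-WD 1 and 0 to 3 in the other 12 libraries. CT-CTD 1 was also the library with the highest Fasn. Ucp1 did not pass the filter and was not tested in the fit described. Without the filter it was 1 of the 29 genes called, from counts that lie almost wholly in these 2 libraries, so no size is given for it.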
